A study of Bubalus bubalis with 6 samples.

Results

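Genes of fibroblast growth factor (FGF) and hepatocyte growth factor (HGF) signaling were compared between proliferating and differentiating buffalo muscle stem cells (MuSCs). The genes were chosen by symbol from a list of 10, namely the ligands *FGF2*, *FGF7* and *HGF*, the receptors *FGFR1*, *FGFR2*, *FGFR3*, *FGFR4*, *FGFRL1* and *MET*, and the feedback inhibitor *SPRY2*. Of the 24616 genes in the table, 9 carried these symbols, and all 9 passed the minimum of 10 counts in total over the 6 samples. *FGF2* was not analysed here. PolyA-selected RNA was sequenced from 3 samples of MuSCs proliferating in growth medium with fetal bovine serum (GM samples) and 3 samples switched to differentiation medium with horse serum (DM samples). The MuSCs were primary cells from the longissimus muscle of buffalo fetuses, isolated by digestion with collagenase and trypsin. No strain, genotype, sex or sampling time is given in the labels. Whether the 3 samples of a group came from separate animals or cultures is not stated, so the p-values measure the spread between these samples, which may be technical.

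Both pathways signal through receptor tyrosine kinases. FGFs bind FGFR1 to FGFR4 together with heparan sulfate chains, and the activated receptor signals through the adaptor FRS2, RAS and the kinase ERK, which in turn switches on inhibitors such as the Sprouty proteins. HGF is made as an inactive precursor, is cut by proteases and binds a single receptor, MET. In skeletal muscle, HGF released from the matrix is known to activate quiescent satellite cells, and FGFs are known to keep myoblasts dividing and to delay their differentiation in culture.

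The 6 libraries held between 35615864 and 40305237 counts on genes. Of 15576 genes tested with edgeR, 25.3% were called, 10.3% as lower and 15.0% as higher in DM samples, where a call took a log2 difference beyond 1 in either direction and an adjusted p of less than 0.05. Expression is given below as CPM, counts scaled to a common library size after TMM normalization, and fold changes are DM over GM unless stated otherwise. DM replicate 3 stood apart, with a Pearson's r across genes of 0.982 to either other DM sample against 0.991 between those, and genes are not independent replicates. All 11 listed markers of myogenic cells were above the minimum, and 3 of them were called higher and 3 lower in DM samples. Their summed level was 3156 to 3416 CPM in GM samples and 2494 to 2996 CPM in DM samples, most of it from *DES*. The myoblast factor *MYF5* fell by 2.70 and the integrin *ITGA7* by 1.96 on the log2 scale. The third lower call, *PAX3*, had at most 6 counts in any sample. *MYF6*, *CHRNA1* and *MYOG* were the higher calls, with rises of 3.97, 1.97 and 1.66 on the log2 scale. Of the 9 listed myotube markers, all 9 were called higher in DM samples, and their sum went from 435 to 879 CPM up to 6136 to 8837 CPM. Fibroblast markers were abundant too, with 7 of 11 tested called higher and none lower, and a sum of 35973 to 36747 CPM in GM samples and 98396 to 124121 CPM in DM samples. The leukocyte marker *PTPRC* and the epithelial marker *EPCAM* had at most 2 counts in any sample, but other markers of these lists were expressed. Of 6 tested leukocyte markers *CD14* was called higher and *CD68* lower, and of 3 tested epithelial markers *KRT8* and *KRT18* were called higher and *CDH1* lower. The calls of *KRT8* and *KRT18* rested on at most 22 and 9 counts in any sample. Summed markers of adipocytes, endothelial cells, leukocytes and Schwann cells reached at most 14.1 CPM in any sample, those of epithelial cells 30.7 to 37.5 CPM in GM and 7.24 to 9.12 CPM in DM samples, and those of pericytes and smooth muscle 158 to 170 and 209 to 298 CPM. Of the last list 2 of 7 were called, with *KCNJ8* higher by 5.60 and *ABCC9* by 4.59 on the log2 scale, and *CSPG4* had 5449 counts in DM replicate 3 against 1977 and 1962 in DM replicates 1 and 2. In such bulk samples, fewer cells of a type and less RNA per cell cannot be told apart, and the part that these marker shifts have in the results was not tested.

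Of the 9 genes, 4 were called lower in DM samples, namely *MET*, *FGFR3*, *HGF* and *FGF7*, and none was called higher. That is to be read against the 10.3% of all tested genes called lower. A further 4 passed the adjusted p-value but not the fold minimum. *SPRY2*, *FGFRL1* and *FGFR2* were lower and *FGFR1* was higher, while *FGFR4* passed neither. With no fold minimum, 8 of the 9 thus had an adjusted p-value under 0.05, as had 63.0% of all tested genes. Expression ranges of both groups were separate for the same 8 genes and for 68.8% of all tested genes. DM samples were the lower ones, without overlap, for 7 of the 9 genes, beside 34.3% of all tested genes. Among only the genes with separate ranges, DM samples were lower for 7 of the 8, beside 5335 of 10714 tested genes. The median log2 fold change was -0.91 over the 9 genes and 0.03 over all tested genes. The genes were chosen with earlier results of these data known, so these shares and medians are no test of the pathways. Omitting any 1 sample left these 4 genes called, as did DESeq2. When counts were scaled by library size without TMM, *SPRY2* also passed, which gave 5 calls.

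**Figure D1:**
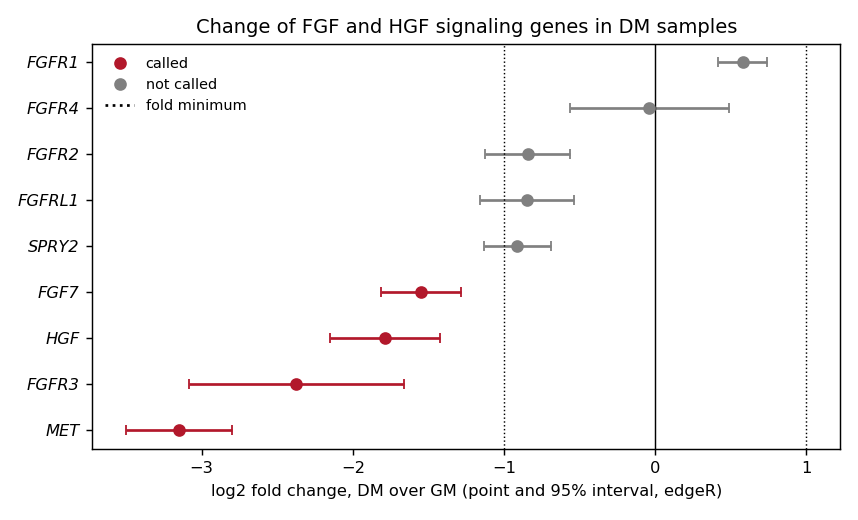
Log2 fold change (x axis, DM over GM) of the 9 FGF and HGF signaling genes, as points with 95% intervals from edgeR; dotted lines mark the fold minimum, red points are called genes and grey points are not. *MET* lies at -3.15 and *FGFR3* at -2.37, *FGFR4* spans 0, and *FGFR1* at 0.58 is the single gene whose interval lies above 0.

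*MET* (ENSBTAG00000006161, chromosome 4, 51912652 to 52042198, minus strand), the HGF receptor, showed the largest change of the 9 genes. It held 5016, 4821 and 4765 counts in GM replicates 1, 2 and 3, and 493, 610 and 358 counts in DM replicates 1, 2 and 3. This is 121, 116 and 126 CPM in GM samples and 14.6, 16.7 and 9.68 CPM in DM samples. The highest DM sample thus lay far below the lowest GM sample, and DM replicate 3 was the lowest. The mean went from 121 ± 4.90 CPM to 13.6 ± 3.59 CPM (SD, n = 3 each), which is 8.86-fold lower in DM samples. On the log2 scale the change was -3.15 (standard error, SE, 0.158, edgeR adjusted p = 5.61e-08), and 1.10% of all tested genes had a lower value. Without DM replicate 3 the log2 fold change was -2.94.

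*HGF* (ENSBTAG00000017664, chromosome 4, 39116167 to 39197870, plus strand), the ligand of MET, fell as well. Its counts were 444, 400 and 335 in GM samples and 77, 112 and 114 in DM samples. The level was 10.7, 9.61 and 8.84 CPM in GM replicates 1, 2 and 3 and 2.28, 3.06 and 3.08 CPM in DM replicates 1, 2 and 3. All 3 DM samples lay below all 3 GM samples, and DM replicate 3 did not stand apart from DM replicate 2. The mean fell from 9.72 ± 0.940 CPM to 2.81 ± 0.457 CPM, or by 1.79 on the log2 scale (SE 0.165, edgeR adjusted p = 4.25e-06). *HGF* and *MET* lie on the same chromosome in the table, 12715 kb apart.

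The balance of receptor and ligand transcripts moved as well. Per length, in RPKM, the *MET* level was 5.86, 6.25 and 7.37 times that of *HGF* in GM replicates 1, 2 and 3. In DM replicates 1, 2 and 3 it was 3.32, 2.82 and 1.63 times that of *HGF*. The groups did not overlap in this ratio, whose mean was 6.49 ± 0.788 in GM samples and 2.59 ± 0.869 in DM samples. The ratio was above 1 in every sample, so by this measure the receptor transcript was more abundant than the ligand transcript in both groups. The measure rests on listed lengths of 4805 bases for *MET* and 2491 bases for *HGF*, whose match to the buffalo transcripts was not tested.

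*FGF7* (ENSBTAG00000004013, chromosome 10, 61005653 to 61068184, minus strand) encodes keratinocyte growth factor, a ligand typically made by mesenchymal cells that binds the epithelial splice form of FGFR2. It held 2085, 1955 and 1791 counts in GM samples and 595, 687 and 483 counts in DM samples. The level was 50.3, 47.0 and 47.2 CPM in GM replicates 1, 2 and 3 and 17.6, 18.8 and 13.1 CPM in DM replicates 1, 2 and 3. The GM samples lay close together, and DM replicate 3 was again the lowest. The mean fell from 48.2 ± 1.83 CPM to 16.5 ± 3.02 CPM, or by 1.55 on the log2 scale (SE 0.12, edgeR adjusted p = 1.14e-06). Of the 11 tested fibroblast markers, 7 were called higher in DM samples and none lower, while *POSTN* had a log2 fold change of -0.93, and their part in the *FGF7* value was not tested. Per length, the *FGF7* level was 14.6 ± 0.506 times that of *FGFR2* in GM samples and 9.16 ± 2.58 times in DM samples, and the groups did not overlap. The tables do not separate splice forms of *FGFR2*, for which a single transcript is listed.

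**Figure D2:**
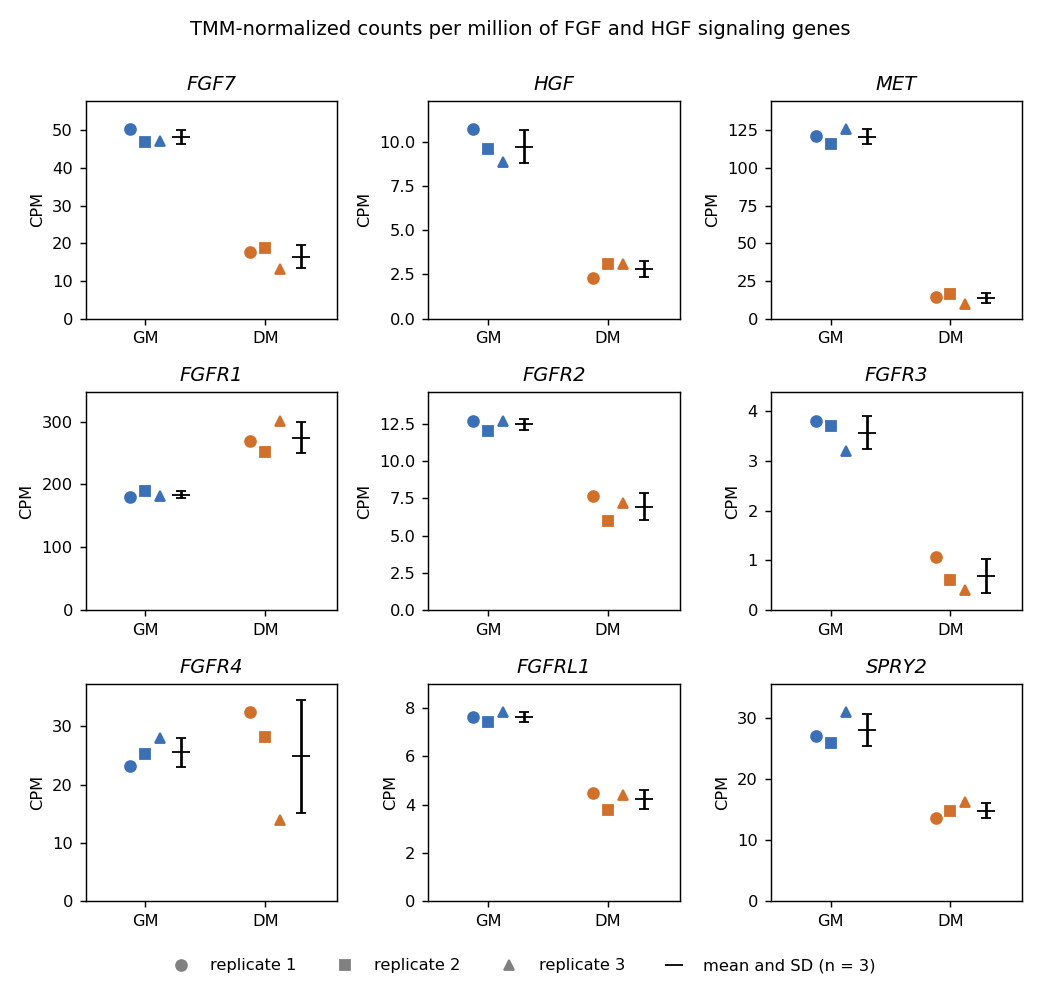
CPM (y axes, linear and starting at 0) of the 9 genes in each GM (blue) and DM (orange) sample, with the replicate number given by the symbol and the mean and SD in black (n = 3). The groups are separate in 8 panels, and in the *FGFR4* panel DM replicate 3, at 13.9 CPM, lies below all GM samples while DM replicates 1 and 2 lie above them.

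The 4 FGF receptors with a kinase domain moved in different ways. *FGFR1* (ENSBTAG00000015457, chromosome 27, 33250534 to 33291989, minus strand), the receptor with the highest level here, held 7454, 7901 and 6866 counts in GM samples and 9095, 9220 and 11155 counts in DM samples. This is 179.7, 189.9 and 181 CPM in GM replicates 1, 2 and 3 and 269, 252 and 301 CPM in DM replicates 1, 2 and 3. It was higher in all 3 DM samples than in any GM sample, and 34.5% of all tested genes did the same. The mean was 184 ± 5.53 CPM in GM samples and 274 ± 25.1 CPM in DM samples, a 1.49-fold difference. The log2 fold change of 0.58 (SE 0.0732, edgeR adjusted p = 4.80e-05) was under the fold minimum, so *FGFR1* was not called.

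*FGFR3* (ENSBTAG00000007164, chromosome 6, 109691052 to 109704277, plus strand), known for its part in limiting bone growth, was the receptor with the lowest level and the one FGF receptor that was called. Its counts were 158, 154 and 121 in GM samples and 36, 22 and 15 in DM samples. The level was 3.81, 3.70 and 3.19 CPM in GM replicates 1, 2 and 3 and 1.07, 0.601 and 0.405 CPM in DM replicates 1, 2 and 3. All DM samples lay below all GM samples. The log2 fold change was -2.37 (SE 0.320, edgeR adjusted p = 7.85e-05), or 5.18-fold lower in DM samples. With so few reads in DM samples its interval, from -3.08 to -1.66, was the widest of the 9 genes, and without DM replicate 3 the log2 fold change was -2.10.

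*FGFR2* (ENSBTAG00000014064, chromosome 26, 41823653 to 41926635, minus strand) held 526, 501 and 483 counts in GM samples and 260, 218 and 267 counts in DM samples. The level was 12.7, 12.0 and 12.7 CPM in GM replicates 1, 2 and 3 and 7.70, 5.96 and 7.22 CPM in DM replicates 1, 2 and 3. The groups did not overlap. The difference of -0.84 on the log2 scale (SE 0.126, edgeR adjusted p = 1.62e-04) stayed under the fold minimum, with an interval from -1.12 to -0.57.

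*FGFR4* (ENSBTAG00000010543, chromosome 7, 39936164 to 39946911, plus strand), the FGF receptor known for its expression in developing muscle, held 963, 1049 and 1063 counts in GM samples and 1095, 1031 and 516 counts in DM samples. The level was 23.2, 25.2 and 28.0 CPM in GM replicates 1, 2 and 3 and 32.4, 28.2 and 13.9 CPM in DM replicates 1, 2 and 3. DM replicates 1 and 2 lay above all GM samples and DM replicate 3 lay below them, so the groups overlapped. The means were 25.5 ± 2.42 CPM and 24.8 ± 9.68 CPM, and the log2 fold change was -0.04 (95% interval -0.56 to 0.49, edgeR adjusted p = 0.900). The samples are thus compatible with a moderate difference in either direction. Without DM replicate 3 the log2 fold change was 0.26 (edgeR adjusted p = 0.0174), still under the fold minimum. It also turned positive, at 0.035, without GM replicate 3, so no direction can be given. *PAX7* and *MYOD1*, transcription factors of muscle progenitors and myoblasts that were picked after their values were seen, were lowest in that sample among DM samples. *PAX7* held 415, 400 and 226 counts and *MYOD1* 2270, 2745 and 1455 counts in DM replicates 1, 2 and 3. Other markers of the same list went the other way, and *DES*, *MYF6* and *CHRNA1* were highest in DM replicate 3, with 89216, 338 and 1449 counts. The myotube marker sum was 8837 CPM in DM replicate 3 against 6136 and 6233 CPM in DM replicates 1 and 2, and the part of these shifts in the *FGFR4* value was not tested.

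Within a sample, the share of each receptor among *FGFR1* to *FGFR4* does not depend on library size. Counts divided by length and summed over the 4 receptors gave *FGFR1* 82.2, 82.5 and 80.8% of the total in GM replicates 1, 2 and 3. In DM replicates 1, 2 and 3 its share was 86.8, 87.9 and 93.6%. *FGFR1* thus made up most of the receptor transcripts in every sample, and its share was higher in all DM samples. *FGFR2* had a mean share of 4.51 ± 0.244% in GM samples and 1.84 ± 0.164% in DM samples. *FGFR3* had 1.89 ± 0.191% and 0.269 ± 0.130%. Both were lower in all 3 DM samples. *FGFR4*, the second most abundant receptor in every sample, took 11.0, 11.3 and 12.9% of the total in the GM samples. Its DM shares were 10.8, 10.2 and, for DM replicate 3, 4.48%. For each of the 4 receptors the groups did not overlap. The exact two-sided permutation test gave p = 0.1, the lowest value possible with 3 samples a group. After Benjamini-Hochberg adjustment over the 4 receptors it was also 0.1. The design cannot reach a p under 0.05 with this test. Shares in a sample are parts of the same total, so the 4 results are not independent. In CPM, *FGFR4* was higher in DM replicates 1 and 2 than in any GM sample. Without DM replicate 3 the share of *FGFR4* differed by -1.27 percentage points and that of *FGFR1* by 5.50, against -3.27 and 7.57 with all samples.

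**Figure D3:**
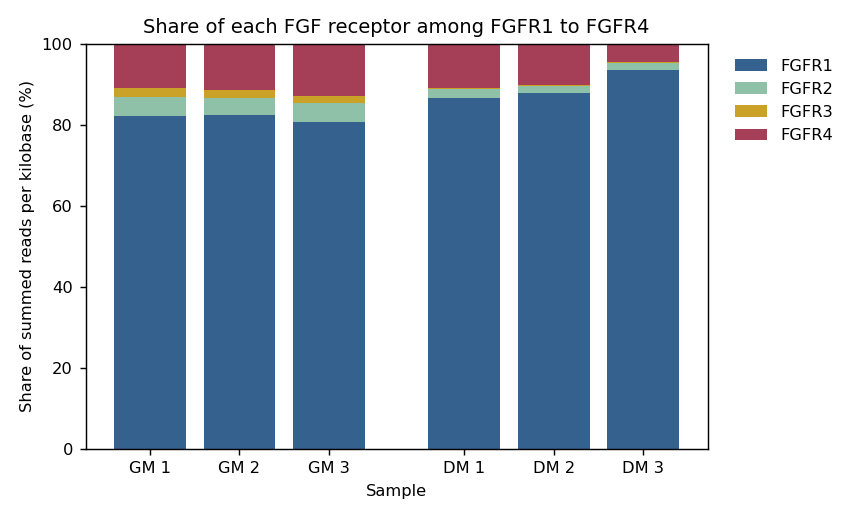
Share (y axis, percent) of *FGFR1*, *FGFR2*, *FGFR3* and *FGFR4* in the summed reads per kilobase of the 4 receptors, as stacked bars for each GM and DM sample. The *FGFR1* part goes from 80.8 to 82.5% in GM samples up to 86.8 to 93.6% in DM samples, and the *FGFR4* part is smallest in DM replicate 3, at 4.48%.

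*FGFRL1* (ENSBTAG00000027464, chromosome 6, 109131152 to 109133968, plus strand) encodes a receptor that binds FGFs but lacks a kinase domain. Its counts were 316, 308 and 297 in GM samples and 152, 138 and 163 in DM samples. The level was 7.62, 7.40 and 7.83 CPM in GM replicates 1, 2 and 3 and 4.50, 3.77 and 4.41 CPM in DM replicates 1, 2 and 3. The groups were tight and did not overlap. The log2 fold change of -0.85 (SE 0.140, edgeR adjusted p = 3.42e-04) was under the fold minimum and close to that of *FGFR2*. *FGFRL1* lies 557 kb from *FGFR3* on chromosome 6, and the table gives it an interval of only 2817 bases.

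*SPRY2* (ENSBTAG00000001774, chromosome 12, 55684001 to 55685894, minus strand) encodes a Sprouty protein, an inhibitor of receptor tyrosine kinase signaling that is itself induced by ERK. The model is 1894 bases long and spans 1894 bases of the chromosome, so it has no intron. It held 1125, 1081 and 1177 counts in GM samples and 461, 541 and 601 counts in DM samples. The level was 27.1, 26.0 and 31.0 CPM in GM replicates 1, 2 and 3 and 13.6, 14.8 and 16.2 CPM in DM replicates 1, 2 and 3. The DM samples lay below the GM samples without overlap. The mean was 28.1 ± 2.65 CPM in GM samples and 14.9 ± 1.30 CPM in DM samples, which is -0.91 on the log2 scale (SE 0.0993, edgeR adjusted p = 1.54e-05). This was just under the fold minimum, and with library size alone the value was -1.01 and *SPRY2* was called lower.

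Levels of different genes were ordered per length, in the RPKM that the authors deposited, so the order depends on the listed gene lengths. In GM samples the order was *FGFR1* (58.5 ± 1.64 RPKM), *FGF7* (47.1 ± 1.89), *MET* (26.0 ± 1.08), *SPRY2* (15.3 ± 1.45), *FGFR4* (8.40 ± 0.789), *FGFRL1* (5.49 ± 0.161), *HGF* (4.04 ± 0.397), *FGFR2* (3.22 ± 0.106) and *FGFR3* (1.35 ± 0.126). No neighbours in this order overlapped between samples. In DM samples *FGFR1* led with 81.6 ± 7.34 RPKM, followed by *FGF7* with 15.1 ± 2.81 RPKM and by *FGFR4* with 7.64 ± 2.93 and *SPRY2* with 7.61 ± 0.741, whose samples overlapped. *FGFRL1*, with 2.84 ± 0.226 RPKM, and *MET*, with 2.75 ± 0.738, overlapped as well. *FGFR2* (1.67 ± 0.190), *HGF* (1.09 ± 0.194) and *FGFR3* (0.243 ± 0.115) followed. *MET* moved furthest in this order, from the third place in GM samples to place 6 in DM samples. Among all tested genes, 76.4% had a lower RPKM than *MET* in GM samples and 32.3% in DM samples. For *FGFR1* these shares were 89.0% and 93.5%.

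The other genes of both pathways were compared as 7 lists with 133 entries, of which 117 were found by symbol and 106 were tested. Of these, 27 were called, 11 higher and 16 lower in DM samples, beside 25.3% of all tested genes. The median log2 fold change of the 106 genes was -0.17, against 0.03 for all tested genes. These lists were also chosen with earlier results of these data known.

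**Figure D4:**
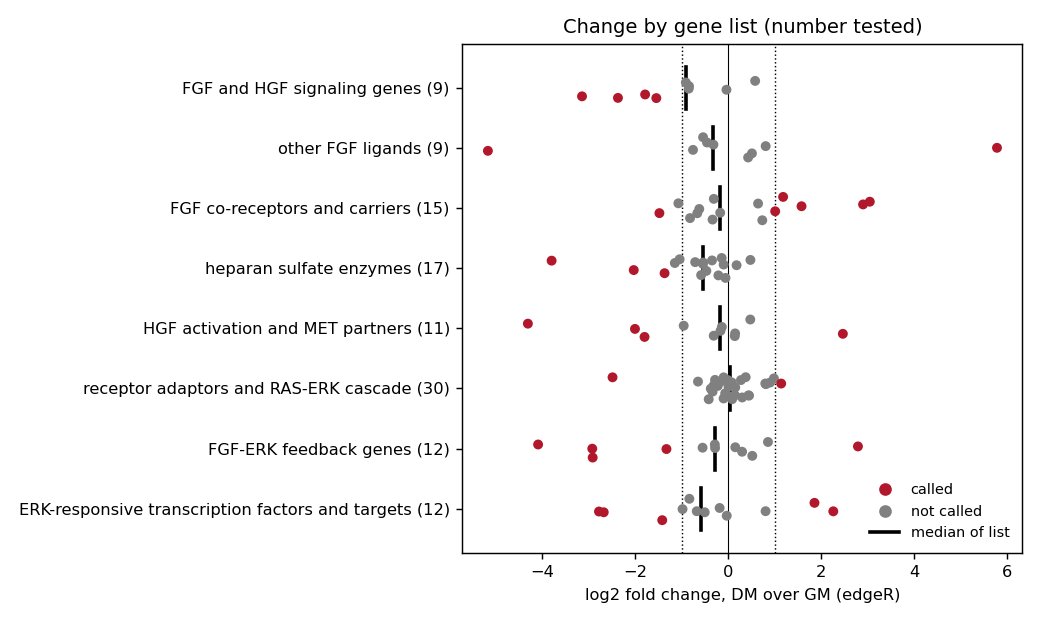
Log2 fold change (x axis, DM over GM) of the 9 genes and of the tested genes of 7 further lists, 1 point a gene, with the number tested in parentheses; red points are called, grey points are not, black bars are list medians and dotted lines mark the fold minimum. Among the feedback genes 4 called points lie below -1 and 1 lies above, while most of the 30 adaptors and cascade genes lie between the dotted lines.

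Of 20 other FGF family genes, 15 were found and 9 were tested, and 3 held no count in any sample. Of the 9 tested, 2 were called, beside 25.3% of all tested genes. *FGF5* (ENSBTAG00000017348, chromosome 6, 96723382 to 96746176), a ligand known for ending hair growth, held 514, 469 and 458 counts in GM samples and 17, 11 and 7 in DM samples. This was a fall from 11.9 ± 0.578 CPM to 0.331 ± 0.159 CPM without overlap, and the log2 difference was -5.17 (SE 0.250, edgeR adjusted p = 4.42e-08). That exceeds the change of any of the 9 genes above. The other call was *FGF6*, a muscle-restricted ligand outside the level set for naming genes, with 0 counts in each GM sample and 8, 4 and 7 counts in DM samples (edgeR adjusted p = 0.00446). With the stricter filter filterByExpr, no gene of this list was called higher. The other 7 tested genes of this list had log2 fold changes between -0.76 and 0.81 and were not called.

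Co-receptors and carriers of FGFs include the heparan sulfate proteoglycans of the syndecan and glypican families. Of 15 tested genes, 5 were called higher and 1 lower, beside 15.0% and 10.3% of all tested genes. *SDC4*, a syndecan found on satellite cells, fell from 75.0 ± 2.06 CPM to 26.9 ± 3.05 CPM, or by 1.48 on the log2 scale (SE 0.0877). *SDC3*, another syndecan of satellite cells, rose from 14.2 ± 0.401 CPM to 32.2 ± 3.44 CPM, by 1.18 on the log2 scale. The 2 called syndecans thus went in opposite directions. The other tested syndecans, named beyond the rule, were not called, with log2 fold changes of -0.67 for *SDC1* and 0.73 for *SDC2*. *GPC3*, a glypican, rose by 1.58 on the log2 scale, and *FLRT2*, a membrane protein of a family that binds FGF receptors, by 1.01, which is just past the fold minimum. The other 2 higher calls, *GPC5* and *FGFBP3*, rested on at most 22 and 9 counts in any sample. Among the 17 tested enzymes that build or trim heparan sulfate, 3 were called lower and none higher, beside 10.3% and 15.0% of all tested genes. Their median log2 fold change was -0.54. *HS3ST1* and *HS3ST2*, which add 3-O-sulfate groups to the chains, fell by 3.80 and by 2.03 on the log2 scale, and *EXTL3*, a glycosyltransferase, fell by 1.37.

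Of the genes around HGF activation and MET, 11 were tested. Of these, 3 were called lower and 1 higher, beside 10.3% and 15.0% of all tested genes. The urokinase *PLAU*, a protease reported to activate the HGF precursor, fell from 299 ± 6.07 CPM to 74.4 ± 7.01 CPM. Its receptor *PLAUR* fell from 250.4 ± 2.18 CPM to 71.8 ± 18.3 CPM. Both were therefore lower in DM samples, as *HGF* and *MET* were. *MST1R*, the receptor most closely related to MET, rose from 0.444 ± 0.159 CPM to 2.48 ± 1.28 CPM, with 26, 14 and 14 counts in GM samples and 133, 72 and 57 in DM samples. *MST1*, the ligand of MST1R, had a log2 fold change of 0.47 (edgeR adjusted p = 0.244). The membrane proteases *ST14* and *HPN*, which can also activate HGF, had at most 2 counts in any sample.

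Of 30 tested receptor adaptors and genes of the RAS-ERK cascade, 1 was called higher and 1 lower, beside 25.3% of all tested genes called, and their median log2 fold change was 0.04. The kinase gene *RPS6KA1*, which acts downstream of ERK, fell from 16.9 ± 0.448 CPM to 3.01 ± 0.400 CPM (log2 fold change -2.49). *PIK3R1*, a regulatory subunit of PI3 kinase, rose from 19.6 ± 1.62 CPM to 43.1 ± 3.09 CPM (log2 fold change 1.14). Between them stood 28 genes with log2 fold changes from -0.65 to 0.98 that were not called, and with no fold minimum 17 of the 30 had an adjusted p-value under 0.05, beside 63.0% of all tested genes.

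Of 12 tested feedback inhibitors of ERK signaling, 4 were called lower, 1 higher and 7 were not called. Among all tested genes 10.3% were called lower and 15.0% higher. *SPRY4*, a Sprouty gene like *SPRY2*, held 1451, 1493 and 1353 counts in GM samples and 57, 47 and 120 in DM samples. It fell from 35.5 ± 0.472 CPM to 2.07 ± 1.03 CPM, or by 4.09 on the log2 scale (SE 0.237, edgeR adjusted p = 1.43e-07), and DM replicate 3 was the highest of the DM samples. *SPRY3* rose instead, from 0.291 ± 0.0848 CPM to 2.03 ± 0.399 CPM, with 8, 14 and 13 counts in GM samples and 76, 83 and 58 in DM samples. *SPRY1*, which keeps satellite cells quiescent and was named after its value was seen, had a log2 fold change of 0.30 and overlapping groups. The 4 Sprouty genes therefore had log2 fold changes between -4.09 and 2.79, with *SPRY2* in between at -0.91. Of the dual-specificity phosphatases, which inactivate ERK and related kinases, *DUSP4* fell by 2.93 and *DUSP5* by 2.92 on the log2 scale. The remaining lower call was *DUSP6*, the ERK phosphatase induced by FGF, which fell from 67.4 ± 3.34 CPM to 26.8 ± 7.10 CPM (log2 fold change -1.33) and was named beyond the rule to complete the count.

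Among 12 transcription factors and targets that respond to ERK, 3 were called lower and 2 higher, beside 10.3% and 15.0% of all tested genes. *FOSL1*, a partner of JUN in the AP-1 factor, fell from 57.1 ± 5.05 CPM to 8.29 ± 1.16 CPM (log2 fold change -2.78). *IER3*, an early response gene, fell by 2.68 on the log2 scale, and *ETV4*, an ETS factor induced by FGF, fell by 1.42. *FOS*, the family member of *FOSL1* that serum induces within minutes, rose from 11.3 ± 2.45 CPM to 54.0 ± 4.72 CPM (log2 fold change 2.26). *EGR2*, another early response factor, rose by 1.86 on the log2 scale. Early response genes thus went both ways, and the list median was -0.59.

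In the deposited transcript table each of the 9 genes had 1 transcript, with the same counts as the gene in all 6 samples. These same counts, tested among 16352 transcripts, are not separate evidence. The same 4 were called lower and the other 5 were not called, with *MET* at -3.17 and *FGFR1* at 0.56 on the log2 scale. The counts of the 9 genes are therefore not split among isoforms, and a change in splicing cannot be read from these tables. None of the 9 gene intervals overlaps another listed gene.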

How the data were processed

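The authors sequenced polyA-selected RNA from 3 GM and 3 DM samples, aligned the reads with HISAT2 and deposited raw counts per gene and per mRNA transcript. The RPKM values were computed by the authors from these counts, the model length and the summed gene counts. The study's methods name a buffalo assembly, the tables list cattle Ensembl identifiers and positions with no build, and the submitters' processing notes name Bowtie 0.12.2 and the mouse builds mm8 and mm9. Positions are therefore given as the tables give them. The counter, its strand setting and its treatment of reads with several matches are not given in the sources used here. Lists of the authors' own fold changes and p-values, and the table of noncoding transcripts were not used. No sequence of these genes was analysed here.

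Genes with at least 10 counts in total were tested in R 4.3.3 with edgeR 4.0.16 (TMM, glmQLFit, glmQLFTest) and Benjamini-Hochberg adjustment over 15576 genes. A gene was called at a log2 difference beyond 1 in either direction with an adjusted p of less than 0.05. The study used these limits with DESeq2. Standard errors come from the F statistic. Receptor shares were compared by an exact permutation test (scipy 1.17.1). Intervals cover the spread between samples. On simulated data with 200 genes changed 4-fold, edgeR recovered 192 among 15420 genes and called 6 unchanged genes. For transcripts it recovered 196 of 200 among 16210 and called 3 unchanged. The changed rows were drawn only from those with higher mean counts, and no outlying sample was simulated. Recovery of changes at low counts was therefore not tested.

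The members and lists were chosen with earlier results of these data known. Of the other pathway genes, the called genes whose mean CPM reached 1 were named, at most 3 in each direction of each list and by size of change. Some other names are marked in the text or complete a count. *MST1*, *ST14*, *HPN* and the cell type markers named with values were also picked outside this rule. A result that this rule would name is not reported here. Alternatives were DESeq2 1.42.0, library size alone, DESeq2's size factors, other filters, other fold minimums, a replicate block and each sample left out in turn.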

Additional observations from a re-analysis of the deposited data

How the results depend on the processing

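All 9 genes kept their direction under every alternative run, except *FGFR4*. Its log2 fold change of -0.04 ranged from -0.27 to 0.26 as single samples were omitted, turning positive without DM replicate 3 (0.26) and without GM replicate 3 (0.035), and it was 0.019 under the RPKM rule, which keeps genes reaching 1 RPKM in most samples. It was called in none of these. With no minimum fold change, 9813 genes, 8 of the 9 members and 69 of the 106 other pathway genes passed. The RPKM rule called 2197 of 11587 genes. *FGFR3*, *FGF5* and *FGF6* could not be tested under it, since each reached 1 RPKM in at most 3 samples. A test against a fold change of 2 called 2293 genes and the same number of members, 4. With library size alone, 7 of the 9 member transcripts were called in place of 4, and the median over all genes went from 0.03 to -0.07 on the log2 scale. Those 9 transcripts have the counts of the genes, scaled by the totals of the transcript table. Over the 6 fits with a sample omitted, the calls ranged from 3647 to 3995 genes, stayed at 4 members and 4 member transcripts, and ranged from 26 to 29 other pathway genes. The difference in receptor share then ranged from 5.50 to 8.89 percentage points for *FGFR1*, from -4.43 to -1.27 for *FGFR4*, from -2.82 to -2.58 for *FGFR2* and from -1.72 to -1.53 for *FGFR3*.

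Same-numbered GM and DM samples did not deviate together (correlations of -0.0218 to -0.00756). Whether the numbers pair the samples cannot be told from this, since paired dishes of a single culture could also lack a common deviation. With a replicate block 4 members were called as before. Low counts in at least 1 group limit genes such as *FGFR3*, *FGF5*, *FGF6* and *HS3ST1*, and the cause of the shift in DM replicate 3 was not tested.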
